A study of Mus musculus with 8 samples.

Results

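High mobility group (HMG) proteins are small, abundant chromatin proteins that carry no enzymatic activity, and the genes examined here are the HMGB, HMGN and HMGA family genes Hmgb1, Hmgb2, Hmgb3, Hmgn1, Hmgn2, Hmgn3, Hmgn5 and Hmga1. They were taken by gene symbol from the deposited expression table. All 8 symbols were found among its 23361 genes, and all 8 passed the filter on low values, a mean of at least 1 FPKM over the libraries, which left 10467 genes to test. FPKM is the number of sequenced fragments divided by the length of the transcript and by all fragments mapped in the library, so that levels of different genes are compared per length. HMGB proteins hold HMG boxes that bend DNA with little preference for sequence, HMGN proteins bind the nucleosome core itself and compete with linker histone H1, and HMGA proteins hold AT-hooks that bind the minor groove of AT-rich DNA. HMG genes are known to be highly expressed in dividing lymphocytes, and Hmgb1 protein also leaves stressed or dying cells and then acts as an alarm signal.

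RNA was sequenced from induced regulatory T cells (iTreg) of wild-type Foxp3-RFP reporter mice, in which a red fluorescent protein marks cells that express Foxp3, the defining transcription factor of Treg. Naive CD4+ T cells were stimulated with anti-CD3/CD28 beads, IL-2 at 50 U/ml and TGF-β at 2 ng/ml, and viable Foxp3-RFP+ cells were sorted by surface neuropilin-1. The 4 Nrp-1+ iTreg libraries are called Nrp-1+ cells below, and the 4 libraries of Nrp-1- iTreg are called Nrp-1- cells, and both groups share genotype, reporter, stimulation and cytokines. The labels give 3 days of culture in the protocol and day 5 in the time field, and the study's methods give day 3, an IL-2 dose in another unit and another library kit. The mice were young adults by the age in the study's methods, and the labels call the libraries biological replicates without naming mice or cultures, so that p-values measure the spread between these libraries, which may be technical in part. In both groups Foxp3 is present by the sort and the cells come from culture, which limits them as a model of Treg in the animal.

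The mRNA of Nrp1, the sort marker, stood at 21.5 ± 0.709 FPKM in the positive group and at 4.95 ± 0.262 FPKM in the negative group (mean ± SD, n = 4 each). Cd3e, Cd4, Foxp3, Il2ra and Ctla4 all had group means from 108.8 to 325 FPKM. Among them Il2ra (266 against 228 FPKM, limma adjusted p = 0.000108) and Foxp3 (116 against 108.8 FPKM, 0.0245) were higher in Nrp-1+ cells and Ctla4 was lower (144 against 160.0 FPKM, 0.000938), each without overlap. Of 13 markers of B cells, CD8 T cells, myeloid cells, NK cells and red cells found in the table, 10 had a mean under 1 FPKM, the highest of them at 0.867 FPKM in any library, and the B cell marker Ms4a1 was at 0 in all 8 libraries. Summed over all 13 markers, the level was 20.4 to 23.7 FPKM in Nrp-1+ cells and 17.8 to 20.1 FPKM in Nrp-1- cells. The 3 markers above 1 FPKM were the CD8 chain gene Cd8b1 (7.86 against 10.0 FPKM, limma adjusted p = 0.0119), the integrin gene Itgam (6.70 against 5.56 FPKM, 0.00136) and the haemoglobin gene Hba-a1 (6.10 against 2.52 FPKM, 0.00051). Each differed without overlap between the groups, as did the summed level. The part of these markers in the results below was not tested. Relative depth, read from the steps in genes of low FPKM, lay between 0.994 and 1.22 in Nrp-1+ cells and between 0.810 and 1.24 in Nrp-1- cells, with the first library set to 1. The share of short RNA genes in the total FPKM varied between libraries from 1.77% to 43.9%.

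The members are spread over 7 chromosomes in the RefSeq annotation of GRCm38.p6. Hmgb1 lies at chr5:149046702-149053057, Hmgb2 at chr8:57511843-57515999, Hmgn1 at chr16:96121588-96127725, Hmgn2 at chr4:133964739-133967991, Hmgn3 at chr9:83109942-83147358 and Hmga1 at chr17:27556574-27563672. Hmgb3 at chrX:71555917-71560673 and Hmgn5 at chrX:109004537-109013380 are both X-linked. RefSeq gave the 250 bases before the start of 7 of the 8 members, all but Hmgn3. They were searched on both strands for the CCAAT box (CCAAT), the site of the factor NF-Y, and for the cell cycle homology region or CHR (TTTGAA or TTCGAA), through which cell cycle genes are held silent in resting cells. The windows of 5 members are printed 5′ to 3′ on the strand of the gene, because the 3 HMGB windows were the richest in these motifs while those of Hmgn2, the most abundant member, and Hmga1, the member whose groups overlapped, held none. Capitals mark the motifs. The windows are chr5:149053058-149053307 on the minus strand for Hmgb1, chr8:57511593-57511842 on the plus strand for Hmgb2, chrX:71555667-71555916 on the plus strand for Hmgb3, chr4:133967992-133968241 on the minus strand for Hmgn2 and chr17:27556324-27556573 on the plus strand for Hmga1.
Hmgb1: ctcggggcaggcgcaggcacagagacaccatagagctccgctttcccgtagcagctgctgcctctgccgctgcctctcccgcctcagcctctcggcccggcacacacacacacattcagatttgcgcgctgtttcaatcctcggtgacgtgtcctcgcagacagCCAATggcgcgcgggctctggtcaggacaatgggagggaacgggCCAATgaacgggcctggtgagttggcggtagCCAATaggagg
Hmgb2: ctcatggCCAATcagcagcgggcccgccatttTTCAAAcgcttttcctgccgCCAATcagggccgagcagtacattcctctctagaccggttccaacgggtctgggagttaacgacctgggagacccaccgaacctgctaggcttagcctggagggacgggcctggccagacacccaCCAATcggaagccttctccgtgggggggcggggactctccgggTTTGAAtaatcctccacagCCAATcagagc
Hmgb3: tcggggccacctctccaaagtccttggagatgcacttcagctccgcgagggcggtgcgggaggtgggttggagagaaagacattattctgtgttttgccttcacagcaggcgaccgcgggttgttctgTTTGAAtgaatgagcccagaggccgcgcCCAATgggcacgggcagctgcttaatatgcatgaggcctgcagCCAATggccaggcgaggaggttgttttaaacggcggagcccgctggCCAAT
Hmgn2: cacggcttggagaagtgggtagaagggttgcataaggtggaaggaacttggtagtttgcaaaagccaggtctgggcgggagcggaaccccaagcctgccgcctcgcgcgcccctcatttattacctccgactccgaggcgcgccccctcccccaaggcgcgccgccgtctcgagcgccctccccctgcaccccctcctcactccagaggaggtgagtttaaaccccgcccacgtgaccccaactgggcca
Hmga1: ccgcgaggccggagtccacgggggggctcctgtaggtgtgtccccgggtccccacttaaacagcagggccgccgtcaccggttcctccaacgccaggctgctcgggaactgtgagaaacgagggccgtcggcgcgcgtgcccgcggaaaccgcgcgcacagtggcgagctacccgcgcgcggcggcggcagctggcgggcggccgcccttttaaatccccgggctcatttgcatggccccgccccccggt

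At least 1 CCAAT box was found in the windows of 5 of the 7 members, against 37.5% of the windows of tested genes and 34.5% of all 27025 windows. Hmgb2 held 4 CCAAT boxes, Hmgb1 and Hmgb3 held 3 each, and Hmgn1 and Hmgn5 held 2 each. As many as 3 or more occurred in 5.36% of the windows of tested genes. The Hmgb2 boxes began 243, 198, 73 and 11 bases before the start, and 1 box of Hmgb1 also began 11 bases before it. A CHR was found in Hmgb2, which held 2, and in Hmgb3, which held 1, against 11.9% of the windows of tested genes, and both motifs together stood in 4.92% of them. The CHR of Hmgb2 nearest to the start began 30 bases before it, and that of Hmgb3 began 122 bases before it. A second start of Hmgb1 in RefSeq, with a window of its own, held neither motif. These matches describe the letters of the windows and do not show that a factor binds there.

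Of the 8 HMG genes, 7 had a higher level in Nrp-1+ cells by limma on log2(FPKM + 1) at an adjusted p under 0.05, and 0 were lower, also at an unadjusted p under 0.05. Among all tested genes, 20.9% were called higher and 20% lower, 40.9% in all. In the same 7 genes every Nrp-1+ library lay above every library of Nrp-1- cells, and 0 members were separated the other way. Among all tested genes, 20.2% were higher and 19.3% lower without overlap. Rescaling without short RNA genes changed the split of all calls from 2189 higher and 2093 lower to 2754 higher and 973 lower, and the 7 members were higher under both. The change was moderate: group means rose by 24.3% to 74.0% in the 7 genes, and 0 of 8 reached a ratio of 2. The median log2 fold change of the 8 members was 0.56, against -0.02 over all tested genes, and the median size of the change among all genes called was 0.22. Since these are bulk samples, a change in the number of cells of a kind and a change in RNA per cell cannot be told apart.

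**Figure D1:**
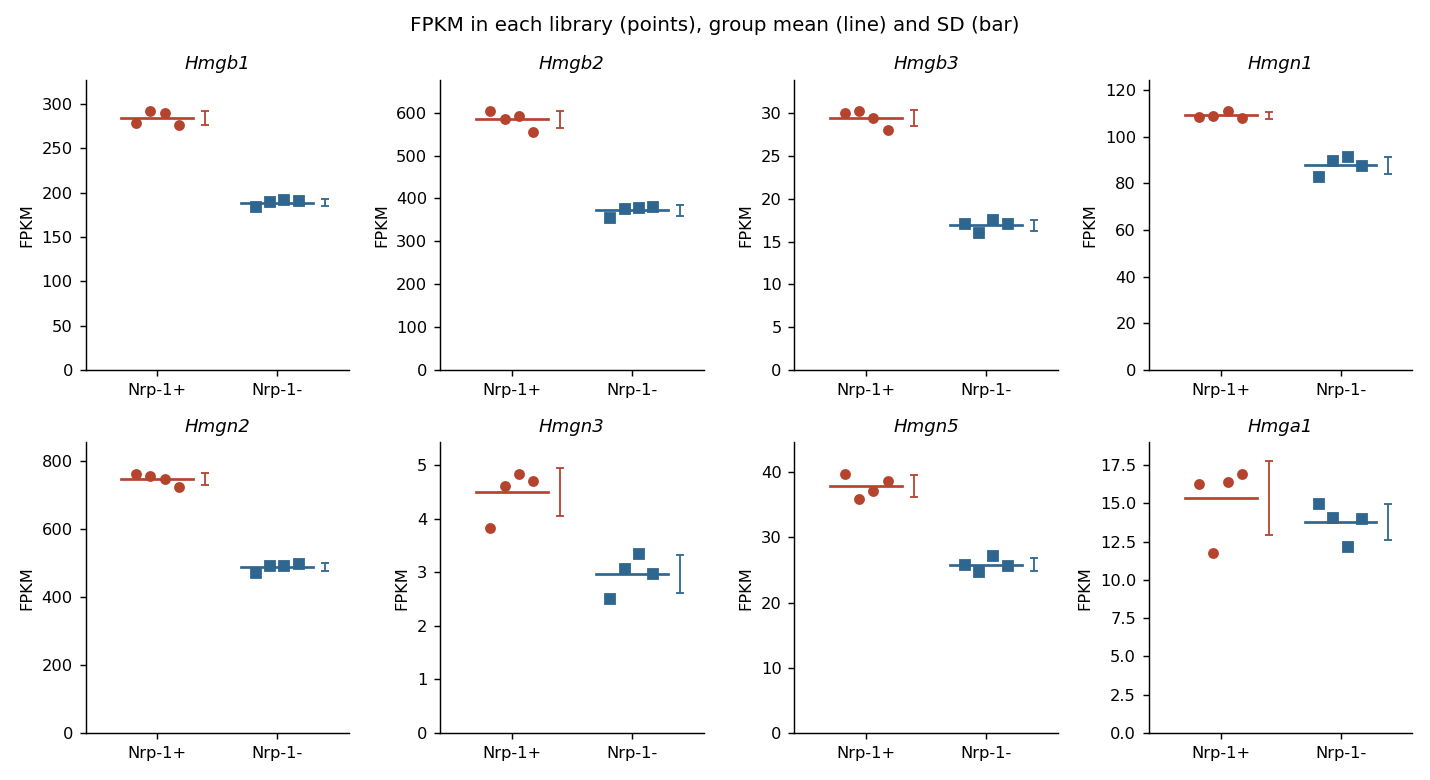
FPKM of the 8 HMG genes in each library (vertical axes from 0), with Nrp-1+ cells as red circles, Nrp-1- cells as blue squares, the group mean as a line and the SD (n = 4) as a bar. In every panel but that of Hmga1 all Nrp-1+ libraries lie above all Nrp-1- libraries. In Hmga1 the Nrp-1+ library at 11.7 FPKM lies below all 4 Nrp-1- libraries.

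The 3 HMGB genes rose, with the largest value in Hmgb3, the rarest of them. Hmgb1, which encodes the DNA-bending protein and extracellular alarm signal, was at 279, 292, 289.8 and 276 FPKM in Nrp-1+ cells and at 184, 189, 192 and 191 FPKM in Nrp-1- cells. The lowest Nrp-1+ library thus stood 84.0 FPKM above the highest Nrp-1- library. The means were 284 ± 7.98 and 189 ± 3.72 FPKM (SD, n = 4), an increase of 50.4% with a log2 fold change of 0.59 (SE, the standard error, 0.03, limma adjusted p = 1.11e-06).

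Hmgb2, whose protein is the HMGB most closely tied to dividing cells, was at 604, 585, 592 and 555 FPKM in Nrp-1+ cells and at 354, 376, 377 and 381 FPKM in Nrp-1- cells. The groups were separated by 174.5 FPKM, a gap wider than the range of either group. The means of 584 ± 20.7 and 372 ± 12.5 FPKM (SD, n = 4) gave an increase of 57.0% and a log2 fold change of 0.65 (SE 0.03, limma adjusted p = 3.14e-06). Hmgb3, an X-linked member known from blood stem cells, was at 29.9, 30.2, 29.4 and 28.0 FPKM in Nrp-1+ cells and at 17.1, 16.0, 17.5 and 17.1 FPKM in Nrp-1- cells. No library of either group came near the other, and the increase of 74.0% was the largest among the 8 members (log2 fold change 0.76, SE 0.04, limma adjusted p = 1.28e-06). It ranked 288 of 10467 tested genes by log2 fold change, with Hmgb2 at 435 and Hmgb1 at 503.

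The 4 HMGN genes rose as well, with values from 24.3% in Hmgn1 to 53.1% in Hmgn2. Hmgn2, which encodes a nucleosome-binding protein and had the highest level of the 8, was at 762, 756, 746 and 722 FPKM in Nrp-1+ cells and at 471, 491, 491 and 498 FPKM in Nrp-1- cells. The lowest of the former lay 224.4 FPKM above the highest of the latter. The means of 747 ± 17.6 and 488 ± 11.5 FPKM (SD, n = 4) gave an increase of 53.1% with a log2 fold change of 0.61 (SE 0.03, limma adjusted p = 1.02e-06).

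Hmgn1, its close relative that also binds nucleosomes, was at 108, 109, 111 and 108 FPKM in Nrp-1+ cells and at 82.8, 89.4, 91.3 and 87.6 FPKM in Nrp-1- cells. The groups did not overlap, but the increase of 24.3% was the smallest of the 7 that passed the test (log2 fold change 0.31, SE 0.03, limma adjusted p = 0.000111). Hmgn5, an X-linked member with a long acidic tail, was at 39.8, 35.9, 37.1 and 38.6 FPKM in Nrp-1+ cells and at 25.7, 24.8, 27.1 and 25.6 FPKM in Nrp-1- cells. Its groups stood apart by 8.80 FPKM, with an increase of 46.7% (log2 fold change 0.54, SE 0.04, limma adjusted p = 1.78e-05).

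Hmgn3, the rarest member, was at 3.83, 4.60, 4.84 and 4.71 FPKM in Nrp-1+ cells and at 2.49, 3.06, 3.35 and 2.97 FPKM in Nrp-1- cells. Library 1 was the lowest in each group and the 2 groups were only 0.483 FPKM apart, yet the increase of 51.5% passed the test (log2 fold change 0.47, SE 0.08, limma adjusted p = 0.00283). At this level the added 1 in log2(FPKM + 1) makes the fold change smaller than the ratio of the means.

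**Figure D2:**
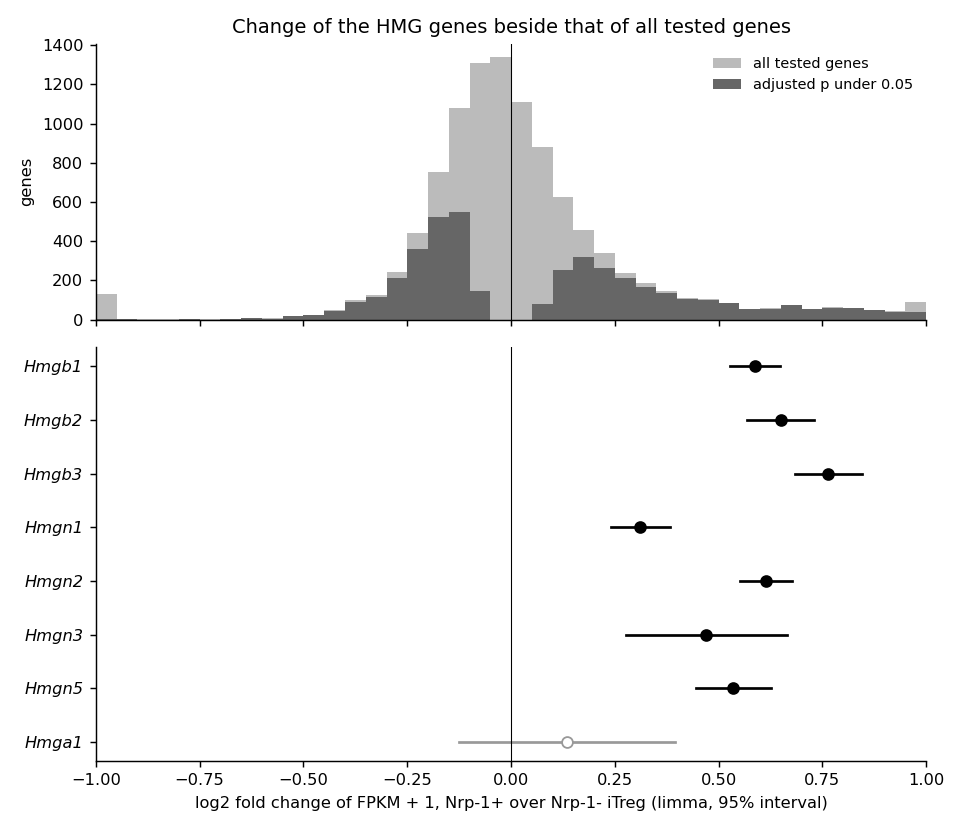
The upper panel counts tested genes by log2 fold change of FPKM + 1 (bins of 0.05 with values past 1 or -1 in the end bins, dark where the adjusted p by limma is under 0.05). The lower panel shows each HMG gene on the same axis with its 95% interval. Of the 8 members, 7 lie between 0.31 and 0.76, to the right of most tested genes, and only the interval of Hmga1, from -0.13 to 0.39, holds 0.

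Hmga1, the AT-hook protein gene, was at 16.3, 11.7, 16.4 and 16.9 FPKM in Nrp-1+ cells and at 14.9, 14.0, 12.2 and 14.0 FPKM in Nrp-1- cells. In Nrp-1+ cells, library 2 lay below every Nrp-1- library, and the other 3 lay above all of them. The means of 15.3 ± 2.42 and 13.8 ± 1.17 FPKM (SD, n = 4) differed by less than the spread between replicates (log2 fold change 0.13, 95% interval -0.13 to 0.39, limma adjusted p = 0.377, exact two-sided permutation test p = 0.343). Without Nrp-1+ library 2 the log2 fold change was 0.25 (SE 0.06, limma adjusted p = 0.0198), so that this library decides the call.

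Copies of the members were looked for by matching their coding bases to the GENCODE M21 transcripts. Matches of at least 90% identity over at least 80% of the length were counted as copies. Hmgb1 had 100 such copies, all annotated as pseudogenes, Hmgn2 had 25, Hmgb3 had 12, Hmgb2 had 10 and Hmgn1 had 4, while Hmgn3 and Hmgn5 had 0. Of the Hmgb1 copies, only Hmgb1-rs17 has a row of its own, at 0.0407 to 0.290 FPKM. The Hmgb2 copies include a stretch in a retained-intron transcript of Tmx3. Reads that match more than 1 place may be counted for the parent gene, divided between rows of the table or left out, and which of these applies is not given in the sources used here. The values of the members with copies, Hmga1 and its missed call included, are uncertain to that extent. What the search found for Hmga1 is not reported here. Of the further rows of these families, the germ-cell gene Hmgb4 was listed at 0 in all libraries and Hmga2, the fetal HMGA gene, at 0.262 to 0.442 FPKM with overlapping groups, both below the filter.

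The order of the levels per length was Hmgn2, Hmgb2, Hmgb1, Hmgn1, Hmgn5, Hmgb3, Hmga1 and Hmgn3 in both groups, and no neighbours in that order overlapped among the libraries of a group. Of 10467 tested genes, Hmgn2 ranked 165, Hmgb2 206 and Hmgb1 387 by mean FPKM, whereas Hmga1 ranked 5255 and Hmgn3 8716. The summed FPKM of the 8 members was 1811 ± 41.5 in Nrp-1+ cells and 1196 ± 30.2 in Nrp-1- cells (SD, n = 4). Leaving short RNA genes out of the total, the 8 genes held 0.266% of the summed FPKM in Nrp-1+ cells and 0.168% in Nrp-1- cells. The HMGB sum, 898 ± 25.5 FPKM, and the HMGN sum, 898 ± 17.5 FPKM, were nearly equal in Nrp-1+ cells, and stood at 578 ± 16.0 and 604 ± 15.0 FPKM in Nrp-1- cells.

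Whether members of a family changed by different amounts was asked of the log2 ratio of 2 members within a library, in which the scaling of the library cancels. The 9 within-family pairs were compared by exact two-sided permutation tests, in which 4 libraries against 4 cannot go below p = 0.0286. In 5 pairs the ratios did not overlap between the groups (each exact p = 0.0286). After adjustment over the 9 pairs these stood at 0.0514 and 0 pairs were under 0.05. With 5 pairs at the smallest p, the adjusted value could not be lower, so that this count does not show equal change. The log2 ratio of Hmgn1 to Hmgn2 was -2.78 in Nrp-1+ cells and -2.47 in Nrp-1- cells, a difference of -0.30, and that of Hmgn1 to Hmgn5 differed by -0.24. The log2 ratio to Hmgb3 differed by -0.21 for Hmgb1 and by -0.15 for Hmgb2, and that of Hmgb1 to Hmgb2 by -0.06. Of the HMGN sum, Hmgn1 made up 12.1 ± 0.254% in Nrp-1+ cells and 14.5 ± 0.336% in Nrp-1- cells (SD, n = 4), and Hmgn2 83.1 ± 0.375% and 80.7 ± 0.427%. The log2 ratio of Hmgn1 to Hmgn3 differed by -0.29 with overlapping groups (exact p = 0.0571, adjusted 0.0857). Ratios among Hmgn2, Hmgn3 and Hmgn5 differed by 0.01 to 0.06 with overlapping groups, and the smallest exact p of these 3 was 0.286.

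Genes of the cell cycle were higher as well. All 20 genes of a list of DNA replication and mitosis genes were higher in Nrp-1+ cells by limma, with a median log2 fold change of 0.91. Among them were the thymidine kinase gene Tk1 (60.2 against 28.4 FPKM, log2 fold change 1.06), the replicative helicase gene Mcm5 (83.0 against 41.0 FPKM, 1.00), the topoisomerase gene Top2a (346 against 173 FPKM, 1.00) and the ribonucleotide reductase gene Rrm2 (211 against 107 FPKM, 0.97). The largest change among the HMG genes, 0.76 in Hmgb3, was below that median.

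Against the mean log2 FPKM of these 20 genes in the same library, 6 of the 8 HMG genes were relatively lower in Nrp-1+ cells, each without overlap (exact two-sided permutation p = 0.0286, adjusted over the 8 members 0.0381). The log2 difference was -0.76 for Hmga1, -0.59 for Hmgn1, -0.35 for Hmgn5, -0.31 for Hmgb1, -0.29 for Hmgn2 and -0.25 for Hmgb2. For Hmgb3 it was -0.10 and for Hmgn3 -0.30, both with overlapping groups (exact p = 0.0857). With a pseudocount of 1 in the ratio all 8 were relatively lower. Hmgb3 was therefore the member whose ratio to the cell cycle genes differed least between the groups. This ratio was not computed for all tested genes. Their median log2 fold change was -0.02, so that most of them rose less than these cell cycle genes. Of all tested genes, 1.18% rose more than Ccnb1 (0.91), a gene of the list near its median. A relatively lower level is thus not particular to the HMG genes. The part of cell division in the levels of the HMG genes was not tested.

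**Figure D3:**
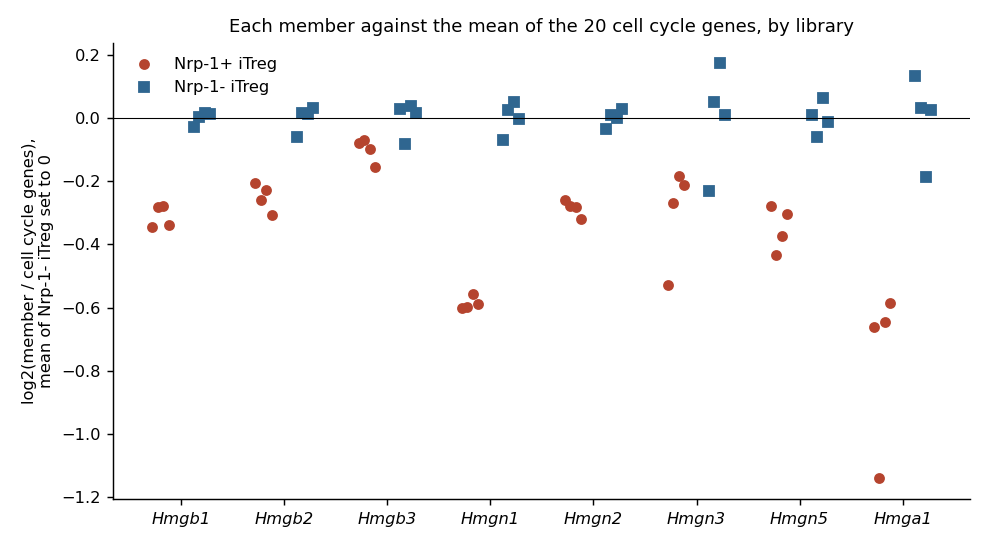
For each HMG gene, the log2 ratio of its FPKM to the mean of the 20 cell cycle genes in each library, with the mean of Nrp-1- cells set to 0 (Nrp-1+ cells as red circles, Nrp-1- cells as blue squares). The red circles lie below the blue squares without overlap in Hmgb1, Hmgb2, Hmgn1, Hmgn2, Hmgn5 and Hmga1, and overlap them in Hmgb3 and Hmgn3. The distance between group means runs from -0.10 in Hmgb3 to -0.76 in Hmga1.

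The HMG box is also found in chromatin proteins and other regulators outside the HMGB family. Of 15 genes listed, 13 were tested, 4 were higher, 1 was lower and 8 did not pass, a share of calls close to the 40.9% of all tested genes, with a median log2 fold change of 0.06. Ssrp1, a subunit of the histone chaperone FACT, was at 111 ± 2.93 FPKM in Nrp-1+ cells and 89.9 ± 2.09 FPKM in Nrp-1- cells (SD, n = 4, log2 fold change 0.30, limma adjusted p = 5.40e-05). Pbrm1, a subunit of the PBAF remodelling complex (0.29, adjusted p = 0.000763), and Hmgxb4 (0.34, adjusted p = 0.00026) were also higher. After rescaling without short RNA genes, 6 of this list were higher and 0 lower. The fourth gene that was higher was Cic (0.13, adjusted p = 0.0153). It encodes a transcriptional repressor and was listed here rather than with the transcription factors below. Cic lies outside the rule for named genes and was named after its values were seen.

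Of 10 HMG-box transcription factors, which bind specific sequences, 5 were tested, 1 was higher and 3 were lower, with a median log2 fold change of -0.11. The T cell factors Tcf7 and Lef1 were lower in Nrp-1+ cells, Tcf7 at 311 ± 2.68 against 364 ± 3.90 FPKM (SD, n = 4, log2 fold change -0.23, limma adjusted p = 2.75e-05) and Lef1 at 159 ± 3.48 against 172 ± 3.69 FPKM (-0.11, adjusted p = 0.00618). Under quantile normalization the log2 fold changes were of similar size, -0.21 for Tcf7 and -0.12 for Lef1, but with wider SEs of 0.09 and 0.07 neither passed (adjusted p = 0.0969 and 0.186). After rescaling without short RNA genes, Lef1 was at -0.05 and did not pass (adjusted p = 0.119). Hbp1, a repressor of proliferation genes, was lower (-0.22, adjusted p = 6.58e-05), and Sox4 was higher (0.33, adjusted p = 0.0051) at 3.82 against 2.82 FPKM.

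Of 7 linker histone genes, with whose proteins HMGN proteins compete for nucleosomes, 3 passed the filter on low values. Group means were 0.228 to 0.785 FPKM in the 4 genes Hist1h1a, Hist1h1b, Hist1h1d and Hist1h1e. The study's methods give an isolation of RNA by its poly(A) tail, which misses any histone RNA without such a tail. These low values therefore need not reflect the level in the cells. H1fx was higher, at 7.55 ± 0.504 against 2.53 ± 0.530 FPKM (SD, n = 4, log2 fold change 1.29, limma adjusted p = 4.13e-05), H1f0 was at 47.0 against 45.5 FPKM without passing the test (adjusted p = 0.319), and Hist1h1c was lower (5.66 against 7.24 FPKM, -0.30, adjusted p = 0.0425). The Hist1h1c call was lost in 9 of 20 alternative settings, while its log2 fold change stayed between -0.37 and -0.22.

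Of the 5 genes of the SET complex, with which Hmgb2 protein associates, Set was higher (142 against 128 FPKM, log2 fold change 0.15, limma adjusted p = 0.00209) and Anp32a was lower (223 against 238 FPKM, -0.10, adjusted p = 0.038), while Apex1, Nme1 and Trex1 did not pass. Under quantile normalization Set was at 0.14 with an SE of 0.05 and did not pass (adjusted p = 0.0636). The Anp32a call was lost in 11 of 20 alternative settings, with log2 fold changes from -0.12 to -0.04.

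Of 10 genes for receptors and binding partners of extracellular Hmgb1, 4 were tested. Cd24a, which encodes a surface glycoprotein that binds Hmgb1, was at 19.4 ± 0.903 against 10.8 ± 0.604 FPKM (SD, n = 4, log2 fold change 0.78, limma adjusted p = 4.65e-06). Cxcr4, the receptor for Cxcl12 with which Hmgb1 forms a complex, was at 68.7 against 56.4 FPKM (0.28, adjusted p = 0.000556). Ager, which encodes the receptor RAGE, was lower, at 1.37 ± 0.0910 against 2.38 ± 0.384 FPKM (-0.50, adjusted p = 0.0025), close to the filter. Tlr2 was at 3.88 against 3.45 FPKM (adjusted p = 0.211), and Tlr4, Tlr9, Havcr2, Trem1, Thbd and the ligand Cxcl12 were all under a mean of 1 FPKM.

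**Figure D4:**
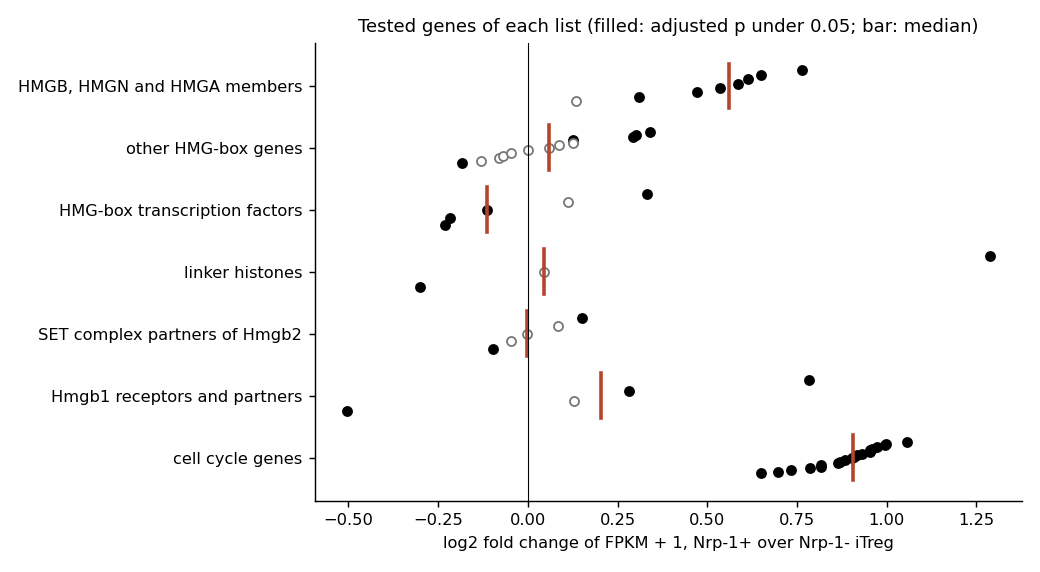
Log2 fold change of FPKM + 1 for the tested genes of each list (filled where the adjusted p by limma is under 0.05, open otherwise, with the median as a red bar). The medians are 0.56 for the HMGB, HMGN and HMGA members, 0.06 for the other HMG-box genes, -0.11 for the HMG-box transcription factors and 0.91 for the cell cycle genes.

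The genes whose log2(FPKM + 1) followed each member most closely over the 8 libraries were searched among 7916 genes with a mean of at least 5 FPKM, short RNA genes left out. Hmgb1 was followed by Ncapg, Hnrnpab and Ptma, Hmgb2 by Prim1, Calm2 and Ska3, and Hmgb3 by Pola1, Fkbp5 and Cenpn, all with a Pearson r of at least 0.998. Hmgn1 was followed by Impa2, Ppih and Tuba4a, Hmgn2 by Calm2, Stmn1 and Tyms, Hmgn3 by Rpusd1, Osbpl5 and Sae1, and Hmgn5 by Mb21d1, Cdan1 and Nup155. The nearest gene to Hmga1 was Lztr1 (r = 0.92), and neither Lztr1 nor the next, Bod1 and Szrd1, differed between the groups as the other members did (log2 fold changes 0.01 to 0.11). Between pairs of members, r was 0.875 to 0.999 in the 21 pairs without Hmga1 and 0.207 to 0.433 in the 7 pairs with it. These values share the difference between the groups and the scaling of each library. After the group means were taken out, r ran from -0.44 to 0.961 in the 21 pairs, and the highest, 0.961, was that of Hmgb2 and Hmgn2.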

How the data were processed

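RNA sequencing data of 8 libraries, 4 of Nrp-1+ iTreg and 4 of Nrp-1- iTreg, were used. Reads were handled by the authors in the CLC Genomics Workbench and Cufflinks, and the deposited table holds 1 value in FPKM for each gene symbol in each library. The submitters' processing notes list the builds GRCm38 and mm10, and aligner settings and annotation are not given in the sources used here. No count model was applied, as FPKM values are not counts, and only the relative depth of the libraries is known.

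Genes with a mean of at least 1 FPKM (10467 of 23361) entered a limma 3.58.1 fit of log2(FPKM + 1), by lmFit and eBayes with trend in R 4.3.3, with p-values adjusted by Benjamini-Hochberg over all tested genes at 0.05. On this scale, changes of genes at a low level come out too small. Exact two-sided permutation tests used all 70 arrangements of 4 against 4 libraries. The members and gene lists were chosen with earlier results of these data known. Named genes are the 8 members, up to 4 genes per list with the largest change among those that passed, further rows of the HMG families and 3 genes of highest Pearson r per member. Some genes of these families and lists are not reported here by name. Symbols were matched to RefSeq (GRCm38.p6) for coordinates and promoters, and coding bases to GENCODE M21 transcripts with blastn 2.17.0. Fits and exact tests were tested on simulated data. Python 3.11.15 with numpy 2.4.6, pandas 2.3.3, scipy 1.17.1 and matplotlib 3.10.9 was used for the rest.

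The fits were repeated with a pseudocount of 0.1 or 0.5, without the filter or with it at 5 FPKM, with median-of-ratios size factors, quantile normalization or rescaling without short RNA genes, with the replicate number as a block, with array weights, with eBayes without trend, with a correction for GC content and length without and with the block, and with each library left out in turn.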

Additional observations from a re-analysis of the deposited data

Results flagged for a closer look

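Among 56 groups of 4 libraries searched for 1 library far from the other 3, 4 were marked by Dixon's test, where chance marks about 1 in 20, or 2.8 groups. Hmga1 in Nrp-1+ iTreg library 2 was at 11.7 FPKM, against 16.3 to 16.9 FPKM in the other 3. The remaining 3 concern library 3 of Nrp-1- iTreg, which had the lowest relative depth (0.810). In that library Hmgxb4 was at 5.72 FPKM against 6.12 to 6.20 FPKM, Cd24a at 11.7 FPKM against 10.5 to 10.6 FPKM, and Tk1 at 29.8 FPKM against 27.9 to 28.0 FPKM. In these 3 genes the groups did not overlap with the library included.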

How the results depend on the processing

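The 7 members other than Hmga1 kept their direction and their call in 139 of 139 alternative fits, with a largest adjusted p of 0.012, that of Hmgn2. The count of members higher ran from 6, with the filter at 5 FPKM, which leaves Hmgn3 untested, to 8, without Nrp-1+ iTreg library 2, where Hmga1 passed with a log2 fold change of 0.25 (0.079 to 0.25 with each library left out). Rescaling without short RNA genes shifted the median log2 fold change of all tested genes from -0.02 to 0.04 and moved the split of all calls from 2189 higher and 2093 lower (51.1% higher) to 2754 and 973 (73.9%).

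Whether same-numbered libraries came from the same mouse or culture is not given. Their deviations from the group means correlated at -0.54, -0.02, 0.01 and -0.50 over all tested genes. Without short RNA genes the correlations lay between -0.04 and -0.11. These values show no shared deviation over the genes as a whole, but cannot show that the libraries are unpaired. Fitted with the replicate block, 1931 genes were called higher and 1675 lower. The largest adjusted p among the 7 members was 0.00177. By the exact sign-flip over 4 pairs, whose smallest p is 0.125, the count of members whose ratio to the cell cycle genes differed was 0 in place of 6, as that design cannot pass the threshold. With a pseudocount of 1 in the ratio the count was 8, Hmgb3 and Hmgn3 included. Ratio tests were not run with a library left out, since 3 against 4 cannot go below 0.0571.

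Counts in the short lists moved as follows. Where the filter at 5 left a gene untested this is stated, and other causes were not tested. Other HMG-box genes lower numbered 3 under quantile normalization, 0 after rescaling (with 6 higher), 2 with array weights or with the correction for GC content and length, and 1 to 2 with a library left out. HMG-box transcription factors higher numbered 0 with the filter at 5, which leaves Sox4 untested, and lower 1 under quantile normalization. Linker histones higher numbered 2 with no filter, and lower 0 with no filter and after rescaling and 0 to 1 with a library left out. SET complex genes higher numbered 0 under quantile normalization and 2 after rescaling, and lower 0 with no filter, quantile normalization, rescaling, the replicate block or eBayes without trend and 0 to 1 with a library left out. Hmgb1 receptor genes lower numbered 0 with the filter at 5, which leaves Ager untested.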
